A study of Capra hircus with 2 samples.

Results

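The DLK1-DIO3 imprinted locus of mammals holds a large group of miRNA genes, and its miRNAs were followed here in the endometrium of dairy goats. Members were the known miRNAs whose number after "miR-" belongs to this locus, whatever the species prefix, arm or end annotation of the name. Of 587 distinct names of known miRNAs, 53 were members, with 50 different sequences from 30 hairpins. They covered 28 of the 42 numbers of the locus. No known name was listed for the other 14, which were miR-127, miR-134, miR-337, miR-380, miR-381, miR-433, miR-487, miR-494, miR-496, miR-541, miR-543, miR-665, miR-889 and miR-1185. A number without a listed name was not taken as absent from the tissue.

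The study compared the endometrium before and at the time when it can receive the embryo. Small RNA was taken at the anterior uterine wall of Xinong Saanen goats, all 24 months old, multiparous, brought into oestrus together and mated naturally. Tissue was taken from 10 goats on gestational day 5 (pre-receptive, the P library) and from 10 other goats on gestational day 15 (receptive, the R library). From each phase the RNA of 9 goats was combined to 3 samples that were sequenced 3 times, and each phase has 1 value per miRNA, so no spread between goats could be measured, and every comparison is between 2 libraries and not between the phases.

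In this domain the protein-coding genes DLK1, RTL1 and DIO3 are expressed from the paternal chromosome, while long noncoding RNAs such as MEG3, the antisense transcript of RTL1, and MIRG are expressed from the maternal chromosome. The miRNAs are cut from those maternal transcripts, are found in placental mammals, and are known from the placenta, the fetus, muscle and brain, where imprinted genes of the domain control growth and energy use. They form a smaller cluster around the RTL1 antisense transcript and a larger one that runs from miR-379 to miR-410 and miR-656.

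The sequences below are mature miRNAs as deposited, 5′ to 3′, with the seed (bases 2 to 8, the part that pairs with target RNAs) in capitals. In a name, L and R with a sign give the bases lost or gained at the left and right end against the miRBase sequence, and "ss" gives a substituted position counted from 1 at the 5′ end of that sequence. The 3 members that were called higher in the receptive library are shown first.
oar-miR-758-3p_R+2: tTTGTGACctggtccactaact
bta-miR-431_R-3: tGTCTTGCaggccgtcatgc
oar-miR-154b-3p_L-1: aTCATACAtggttgaccttttt

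The 5 members that were called lower in the receptive library on the deposited scale follow.
cgr-miR-300_R-4: tATGCAAGggcaagctct
cfa-miR-323_L+1: gCACATTAcacggtcgacctct
bta-miR-379_R+3: tGGTAGACtatggaacgtaggcat
oar-miR-412-3p_R-3: tGGTCGACcagttggaaagt
hsa-miR-299-3p_1ss10TC: tATGTGGGacggtaaaccgctt

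The next 3 are the most abundant members, which held more than 50% of the reads of the locus in both libraries.
oar-miR-369-3p: aATAATACatggttgatcttt
oar-miR-410-3p: aATATAACacagatggcctgt
eca-miR-432_R-2: tCTTGGAGtaggtcattgggt

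The last set shows seeds that members share and seeds that differ from miRBase. The miR-376c sequence carries the substitution A6G, which lies in the seed, and miR-376e-3p keeps the seed that miRBase gives for miR-376c. The left end of miR-154b-3p gives it the seed of miR-485-3p, whereas its miRBase form has the seed of miR-539-3p. The pair miR-411b-5p and miR-412-3p have 1 seed in common.
oar-miR-376c-3p_1ss6AG: aACATGGAggaaattccacgt
oar-miR-376c-3p in miRBase: aACATAGAggaaattccacgt
oar-miR-376e-3p: aACATAGAggaaaatccacatt
oar-miR-154b-3p in miRBase: aATCATACatggttgaccttttt
oar-miR-539-3p_R-1: aATCATACaaggacaatttctt
oar-miR-485-3p: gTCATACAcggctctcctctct
oar-miR-411b-5p: tGGTCGACcataaaacgtacgt

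Levels are given as the normalized expression that the authors deposited (NE), and the reads behind them were recovered by dividing by the NE of 1 read. A read was worth 0.860 NE in R but 1.16 NE in P. The study's methods describe NE as counts scaled to clean reads, but the deposited values do not follow that formula, under which a read would be worth more in R, the library with fewer clean reads. The known miRNAs together held 1904242 R reads and 4046631.7 P reads. Fractions could arise where a read that fits several sequences is split between them, which was not tested. Each log2 ratio of R to P has a 95% exact (Clopper-Pearson) interval from the reads, which covers counting error only. For calls, medians and ranges a library with at most 3 reads was set to 3 reads, a floor of 2.58 NE for R and of 3.49 NE for P. A name was called when it had at least 10 reads in both libraries together, a change of more than 2-fold and an interval without 0.

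Members were detected in both libraries. In the R library 49 of the 53 names had reads and in the P library 46 did, with 42 names in both, 7 in R alone and 4 in P alone. At least 10 reads were reached by 30 names and at least 100 reads by 14, while 18 names had no more than 3 reads in either library. The listed members were a small part of the miRNA pool, in which the 14 numbers without a listed name had no listed reads. The names of the members held 3832 R reads and 3925.5 P reads. This was 0.201% of the known-miRNA reads of the R library (95% exact interval 0.195 to 0.208) and 0.0970% of those of the P library (0.0940 to 0.1001). The most abundant member, miR-369-3p, stood at rank 83 of 532 known names in R and at rank 69 of 502 in P.

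Among the 30 members with at least 10 reads, 3 were called higher in the receptive library and 5 lower, and the 22 others lay within 2-fold. The 8 calls were 26.7% of these members, whereas 121 of the 356 known names with at least 10 reads were called, or 34.0%. By direction, 72 of the 356 names were called higher (20.2%) and 49 lower (13.8%). The median log2 ratio of the 30 members was -0.08, with quartiles of -0.94 and 0.12, and that of all 356 names was 0.07, with quartiles of -0.65 and 0.93. The members ranged from -2.24 to 1.89, and 13 lay above 0 and 17 below.

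**Figure D1:**
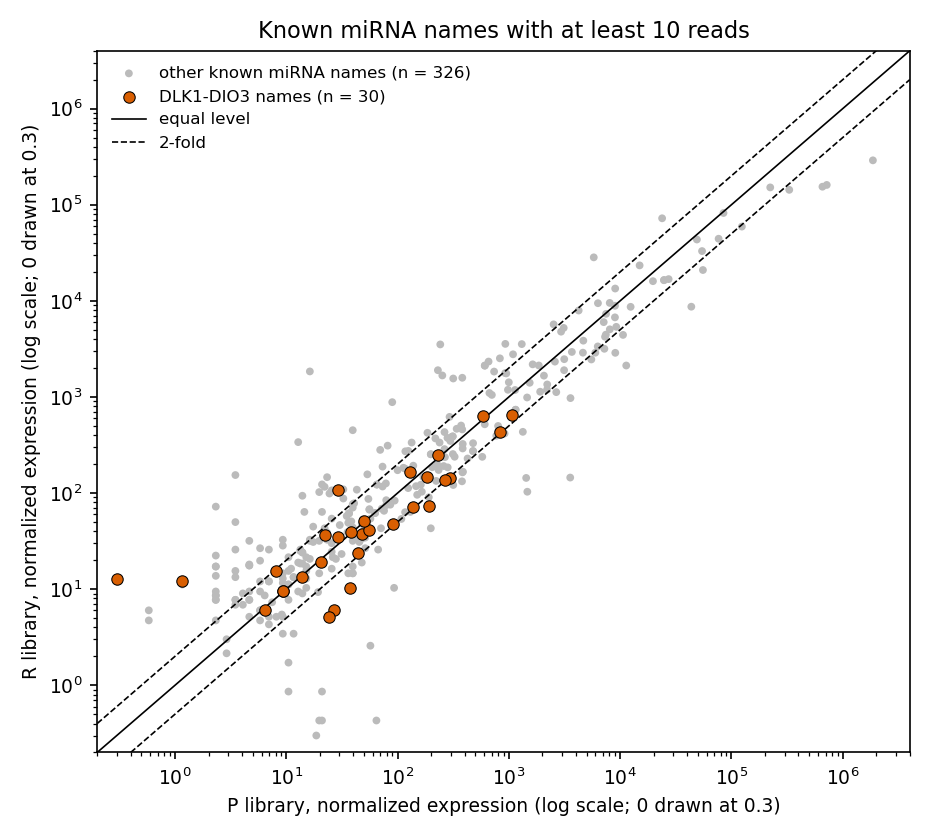
Normalized expression in the P library (horizontal, log scale) and in the R library (vertical, log scale) of the 356 known miRNA names with at least 10 reads, with the 30 members of the DLK1-DIO3 locus as large points. Lines mark equal levels and 2-fold differences, and 22 of the 30 members lie between the dashed lines.

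These counts moved with the scaling between the libraries, because each scaling adds 1 shift to every log2 ratio. Scaling to the clean reads of the study added 0.78, scaling to the reads of all known miRNAs listed added 1.52, and setting the median of all 356 names to 0 added -0.07. On the clean-read scale 7 members were called higher and 3 lower, or 33.3% of 30, beside 174 of the 356 names (48.9%), of which 88.5% were higher against 59.5% on the deposited scale. With listed reads 18 members were called higher and 0 lower, or 60.0%, beside 254 names (71.3%), of which 95.7% were higher. With the median at 0, 3 members were called higher and 9 lower, or 40% of 30, beside 35.7% of all 356 names, with 55.1% of those calls higher. Under each of the 4 scalings the median of the members lay below the median of all known names, by the same distance, since the shift is common.

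**Figure D2:**
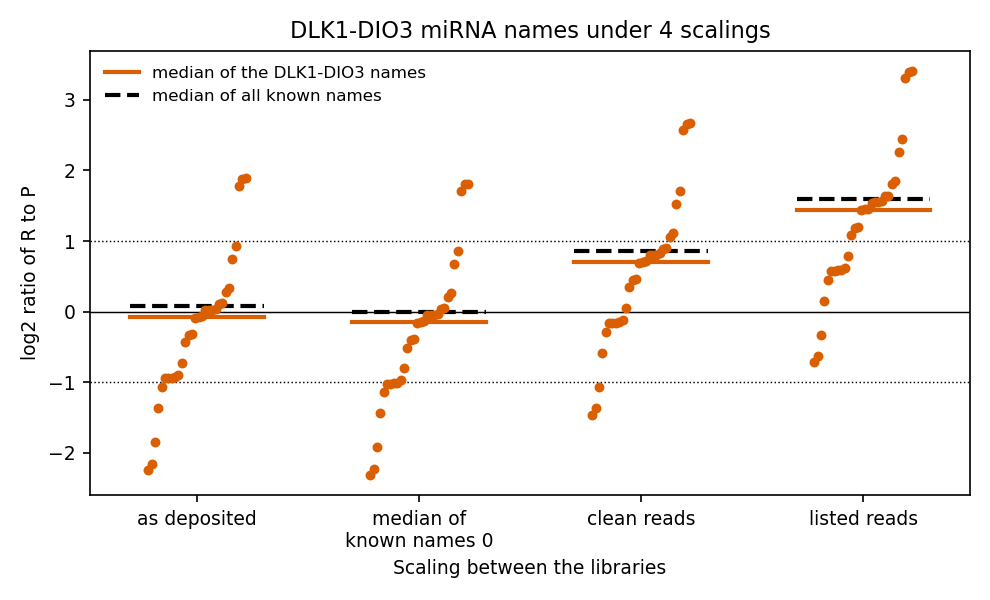
The log2 ratio of R to P (vertical) of the 30 DLK1-DIO3 names with at least 10 reads (points) under 4 scalings, with their median (solid line) and the median of all 356 known names (dashed line). The median of the members was -0.08 as deposited, -0.15 with the median of known names at 0, 0.70 with clean reads and 1.44 with listed reads.

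The 3 members called higher in the receptive library kept that call under all 4 scalings. The other scalings add 0.78, 1.52 or -0.07 to every ratio, which could not remove these 3 calls, so keeping them was no separate check. miR-758-3p, known to repress the cholesterol transporter ABCA1, had 107 NE (124 reads) in R and 29.1 NE (25 reads) in P. It was 3.67-fold higher in R, a log2 ratio of 1.87 with an interval from 1.25 to 2.56, which lay wholly beyond 2-fold, and the ratio became 2.66 with clean reads and 3.40 with listed reads. Among the members with at least 100 reads it was the 1 member whose interval lay above 0 on the deposited scale.

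The other pair that was called higher rested on few reads in the receptive library and on almost none in the pre-receptive library. miR-431, which is cut from the RTL1 antisense transcript and pairs with RTL1 mRNA, had 12.9 NE (15 reads) in R and 0 in P. Against a floor of 3 reads in P, its level in R was at least 3.70-fold higher, and the exact interval of its log2 ratio, which includes counting error, began at 1.41. Against the same floor its log2 ratio was 1.89, and it became 2.67 with clean reads and 3.41 with listed reads. miR-154b-3p had 12.04 NE (14 reads) in R and 1.16 NE (1 read) in P, an observed log2 ratio of 3.37 with an interval from 0.66 to 8.77, and of 1.79 with P set to 3 reads, which became 2.57 with clean reads and 3.31 with listed reads.

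On the deposited scale 5 members of the cluster from miR-379 to miR-410 were called lower in the receptive library. miR-412-3p had 73.9 NE (86 reads) in R and 191 NE (164 reads) in P, a log2 ratio of -1.37 (interval -1.76 to -0.98), which became -0.58 with clean reads and 0.16 with listed reads. miR-299-3p had 141.9 NE (165 reads) in R and 298 NE (256 reads) in P, a log2 ratio of -1.07 (interval -1.36 to -0.78), which became -0.29 with clean reads and 0.45 with listed reads. Both were thus lower in R on the deposited scale and on that of clean reads, without a call on the latter, and above 0 with listed reads.

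The remaining 3 of these members had fewer reads and a larger ratio. miR-379, the first member of its cluster, had 10.3 NE (12 reads) in R and 37.2 NE (32 reads) in P, a log2 ratio of -1.85 (interval -2.94 to -0.85). miR-323, whose 3p arm has been studied in serum as a marker of ectopic pregnancy, had 6.02 NE (7 reads) in R and 26.7 NE (23 reads) in P, a log2 ratio of -2.15 (interval -3.62 to -0.88). miR-300 had 5.16 NE (6 reads) in R and 24.4 NE (21 reads) in P, a log2 ratio of -2.24 (interval -3.84 to -0.89). All 3 were also called lower on the clean-read scale, at -1.07, -1.37 and -1.46, and stayed below 0 without a call with listed reads, at -0.33, -0.63 and -0.72. None of the 5 intervals lay wholly beyond 2-fold on the deposited scale.

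**Figure D3:**
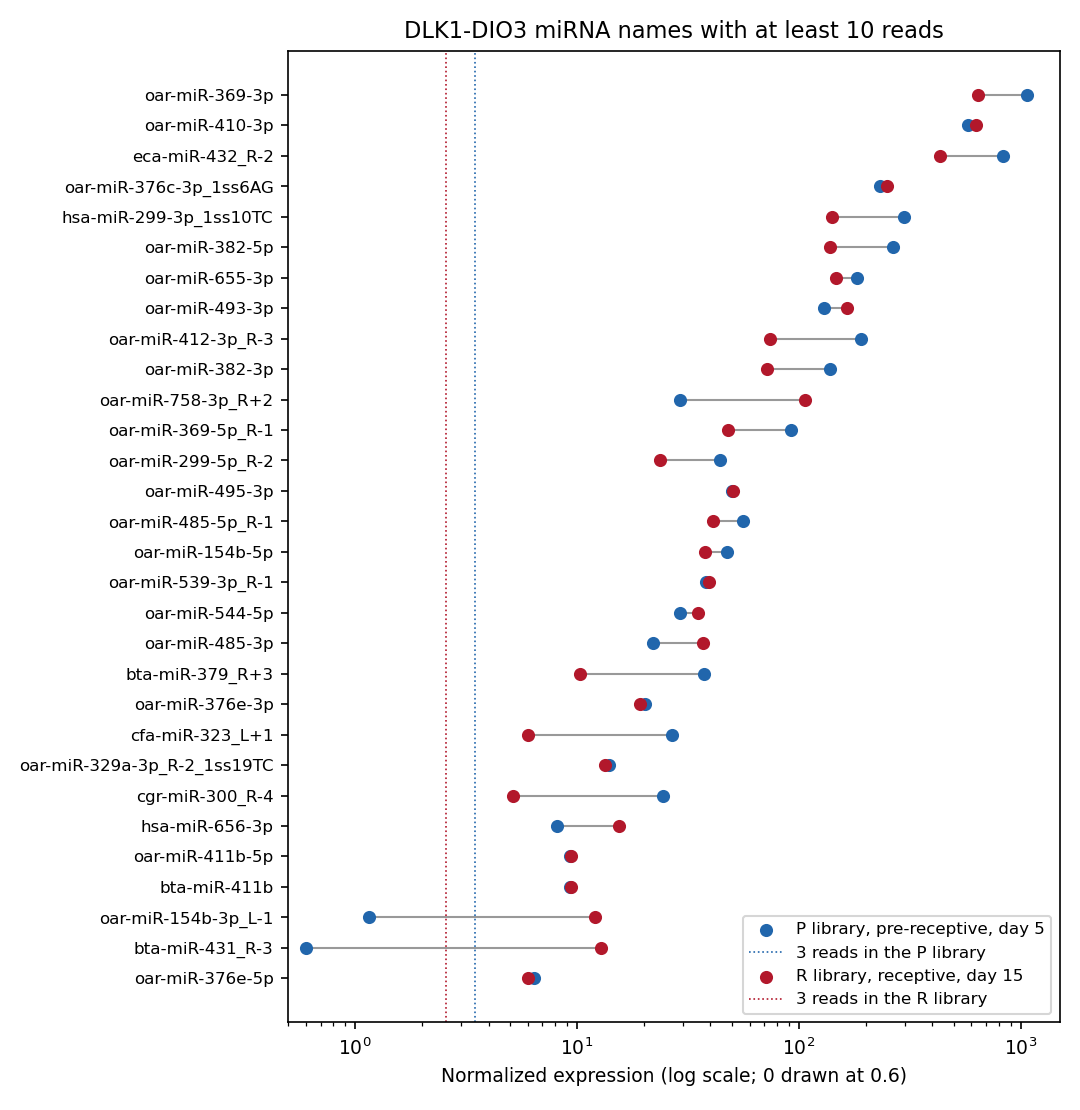
Normalized expression (horizontal, log scale) of the 30 DLK1-DIO3 names with at least 10 reads in the P library and in the R library, ordered by total reads, with dotted lines at 3 reads in each library. Levels run from under 10 NE to 1069.9 NE, miR-431 is drawn at 0.6 in P, where it had no read, and miR-299-5p at the level of 1 of its 2 entries.

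The 3 most abundant members lay within 2-fold of equal levels on the deposited scale. miR-369-3p, which binds AU-rich elements such as that of TNF mRNA, had 644 NE in R and 1069.9 NE in P, a log2 ratio of -0.73 (interval -0.87 to -0.59). miR-410-3p had 631 NE in R and 580.3 NE in P, a log2 ratio of 0.12 (interval -0.04 to 0.29). miR-432, encoded beside RTL1, had 432.5 NE in R and 832.7 NE in P, a log2 ratio of -0.94 (interval -1.11 to -0.78). Of the 3, miR-369-3p and miR-432 were thus lower in R within 2-fold as deposited, but at 0.05 and -0.16 with clean reads and at 0.79 and 0.58 with listed reads. miR-410-3p moved to 0.90 with clean reads and was called higher with listed reads, at 1.64. These 3 names made up 52.4% of the R reads and 55.1% of the P reads of the locus, while the 10 most abundant names made up 82.7% and 87.0%.

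Both arms of miR-382 gave nearly the same ratio as miR-432. miR-382-5p had 138 NE in R and 265 NE in P, a log2 ratio of -0.95 (interval -1.25 to -0.65). miR-382-3p had 72.2 NE in R and 138 NE in P, a log2 ratio of -0.94 (interval -1.36 to -0.52). The less abundant arms of miR-369 and miR-299 lay in the same range: miR-369-5p had 48.2 NE in R and 91.9 NE in P, a log2 ratio of -0.93 (interval -1.45 to -0.42). miR-299-5p, listed for 2 precursors with 23.6 NE in R and 44.2 NE in P at each, had 55 and 76 reads over both entries, a log2 ratio of -0.90 (interval -1.43 to -0.38). All 4 were between -0.16 and -0.12 on the clean-read scale and above 0 with listed reads. With the median at 0, miR-432, both miR-382 arms and miR-369-5p passed 2-fold and were called lower, which made up the 4 added calls.

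Other members with at least 100 reads had similar levels in both libraries. miR-376c-3p, listed with a seed other than that of its miRBase form, had 251 NE in R and 232 NE in P, a log2 ratio of 0.11 (interval -0.15 to 0.38). miR-493-3p, at the start of the first cluster and known to repress IGF1R, had 164 NE in R and 130.3 NE in P, a log2 ratio of 0.33 (interval -0.01 to 0.68). miR-655-3p had 147 NE in R and 184 NE in P, a log2 ratio of -0.32 with an interval that ended just under 0, at -0.64 and -0.00. Among these, miR-493-3p was called higher with clean reads (1.12), and all 3 were called higher with listed reads, at 1.63, 1.86 and 1.20. The lowest of the 14 by reads, miR-495-3p, had 50.7 NE in R and 50.01 NE in P, a log2 ratio of 0.02 (interval -0.57 to 0.62), and was called higher with listed reads, at 1.54.

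The 14 members with at least 100 reads had a median log2 ratio of -0.82 on the deposited scale, beside -0.08 for the 208 known names of that depth. On that scale their intervals lay below 0 for 9 members, above 0 for 1 and on both sides of 0 for 4, and 6 of the 14 ratios fell between -1 and -0.7. Among names with at least 10 reads, 229 of all 356 and 15 of the 30 members had an interval without 0. Intervals above 0 belonged to 72 called and 44 uncalled names of the 356, and to 3 and 0 of the 30 members. Intervals below 0 belonged to 49 called and 64 uncalled names of the 356, and to 5 and 7 of the 30 members. The directions of intervals were not counted for the 208 names. Of the 14 members 1 was called higher and 2 lower, beside 42 and 31 of the 208 known names. These counts hold for the deposited scale, since each ratio gains 0.78 with clean reads and 1.52 with listed reads. The 8 members with 30 to 99 reads had a median of -0.20, beside 0.17 for 74 known names, and the 8 with 10 to 29 reads had 0.02, beside 0.52 for 74 known names. Fewer cells of a type and less miRNA per cell cannot be told apart in RNA from whole tissue.

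**Figure D4:**
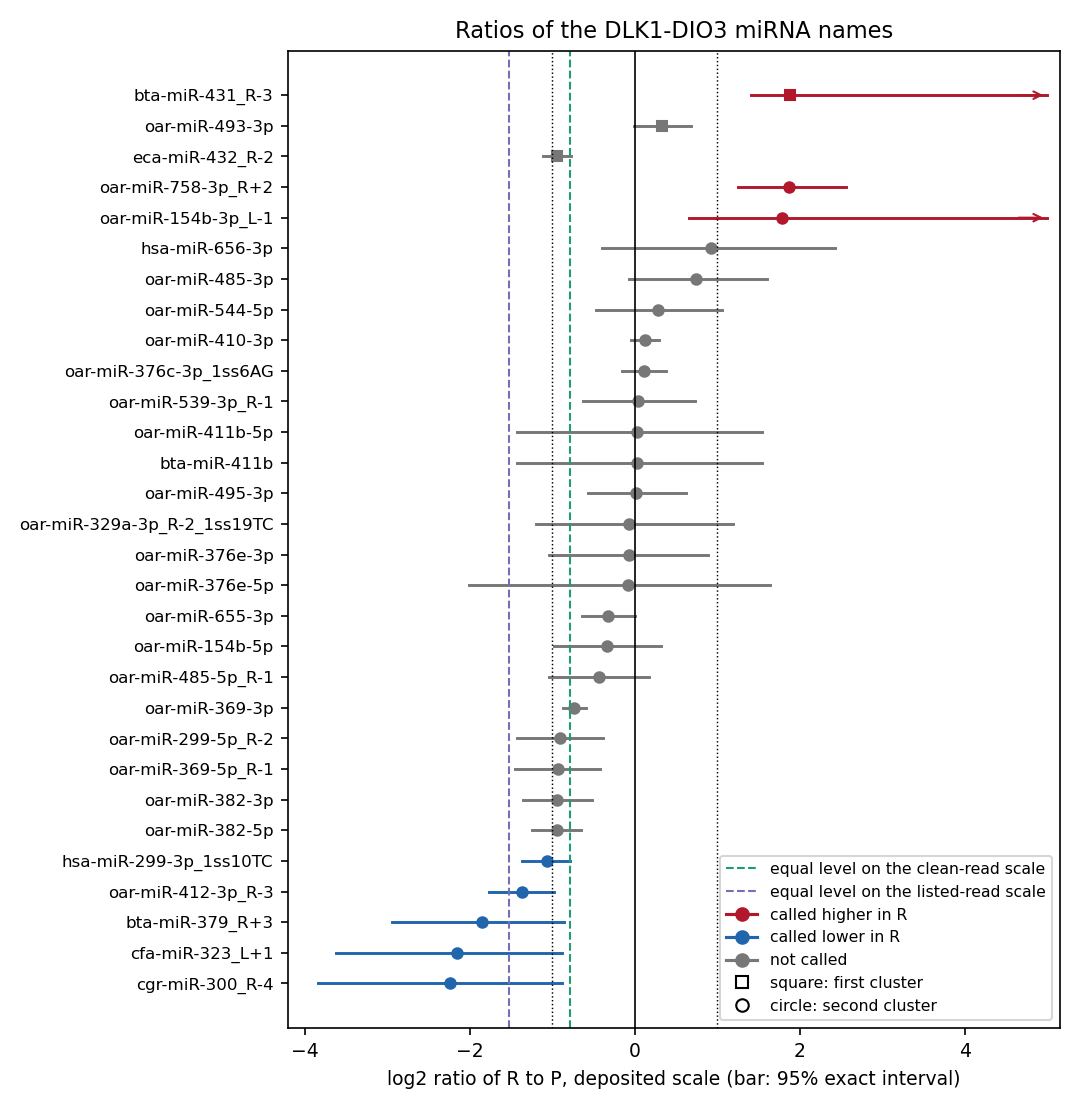
The log2 ratio of R to P on the deposited scale (horizontal) of the 30 DLK1-DIO3 names with at least 10 reads, with 95% exact intervals as bars, squares for the first cluster and circles for the second. miR-154b-3p (1.79) and miR-431 (1.89) are both drawn at their ratio against 3 reads in P, arrows mark intervals that run on, and dashed lines show where equal levels fall on the scales of clean and of listed reads.

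By position, the names fell into 5 of the first cluster around RTL1, 1 between the clusters and 47 of the second cluster. In the first cluster the summed level was 614 NE in R and 968 NE in P, a log2 ratio of -0.66. Of its 3 names with at least 10 reads 1 was called higher, 2 lay above 0 and 1 below, and the median was 0.33. With clean and with listed reads 2 of the 3 were called higher, and with the median at 0, 1 was called higher and 1 lower. The name between the clusters, miR-370-3p, had 2 reads in R and 0 in P. In the second cluster the summed level was 2642 NE in R and 3542 NE in P, a log2 ratio of -0.42. Of its 27 names with at least 10 reads, 2 were called higher and 5 lower, 11 lay above 0 and 16 below, and the median was -0.09, where 20.2% of all 356 names were called higher and 13.8% lower. With clean reads 5 of the 27 were called higher and 3 lower, beside 43.3% and 5.62% of all names. With listed reads 16 were called higher and 0 lower, beside 68.3% and 3.09% of all names. With the median at 0, 2 of the 27 were called higher and 8 lower, beside 70 and 57 of the 356 names. Both sums were lower in R as deposited and higher in R with clean reads, where 0.78 is added.

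In the goat assembly ARS1.2 the locus lies on chromosome 21, with 45 miRNA genes between DLK1 and DIO3, and 22 of the 30 hairpins, with 40 of the 53 names, matched 1 of them by name. MIR412, MIR369 and MIR410 follow each other near the end of the second cluster, and their most abundant arms had log2 ratios of -1.37, -0.73 and 0.12, with intervals that did not overlap. A change of scaling moves all 3 by the same amount, so the spacing between them stayed the same under each scaling, and the differences between the 3 were not tested by themselves. In other adjacent genes the ratios lay close together or far apart. MIR376E and MIR376C had log2 ratios of -0.07 and 0.11 for their 3p arms, with intervals that overlapped. For MIR544 and MIR655 the most abundant arms were at 0.28 and -0.32, also with overlapping intervals. MIR323A and MIR758 are adjacent too, but miR-323 was at -2.15 and miR-758-3p at 1.87, with opposite calls on the deposited scale. The listed name of miR-323 carries no letter, so it was not matched to MIR323A by name.

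Summed over distinct sequences, each with the level of 1 entry, the locus reached 3258 NE in R and 4509 NE in P. Their log2 ratio was -0.47, with an interval from -0.53 to -0.40, and it turned to 0.31 with clean reads and 1.05 with listed reads. Lower NE and a larger share of the listed reads in R were therefore both read from the same values, on different scales.

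The arms of a hairpin come from 1 precursor, so their shares within a library need no scaling between libraries. Both arms were listed for 14 hairpins, of which 13 had at least 10 reads. The 3p arm was the more abundant in both libraries for 7 hairpins and the 5p arm for 5, miR-377 had 1 read of each arm in P, and no hairpin had a different leading arm in the 2 libraries. In miR-369 the 3p arm made up 93.0% of the R reads (95% exact interval 91.1 to 94.7) and 92.1% of the P reads (90.2 to 93.7). In miR-382 the 3p arm made up 34.4% in R (28.5 to 40.8) and 34.3% in P (29.3 to 39.5). In both hairpins the intervals of the libraries overlapped, as they did in miR-299, where the 3p share was 75% in R (68.7 to 80.6) and 77.2% in P (72.4 to 81.6).

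The test of arm shares passed in 1 of the 13 hairpins. It compares the reads of 2 libraries, and like the intervals of the shares it covers counting error only. In miR-154b the 3p arm made up 24.1% of 58 reads in R (13.9 to 37.2) and 2.38% of 42 reads in P (0.060 to 12.6). The two-sided Fisher exact test gave p = 0.00332, and 0.0188 after Benjamini-Hochberg adjustment over the 79 hairpins of all known miRNAs with both arms, of which 15 passed (19%). The 5p arm of miR-154b had 37.8 NE in R and 47.7 NE in P, a log2 ratio of -0.33 (interval -0.98 to 0.32) that became 1.19 with listed reads, while the 3p arm had 14 reads in R and 1 in P. In miR-485 the 3p arm made up 47.3% in R (36.7 to 58.0) and 28.4% in P (18.015 to 40.7), with an exact p of 0.0209 and an adjusted p of 0.0869, which did not pass. Of the 13 hairpins, 9 had a higher 3p share in R and 4 a lower one.

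**Figure D5:**
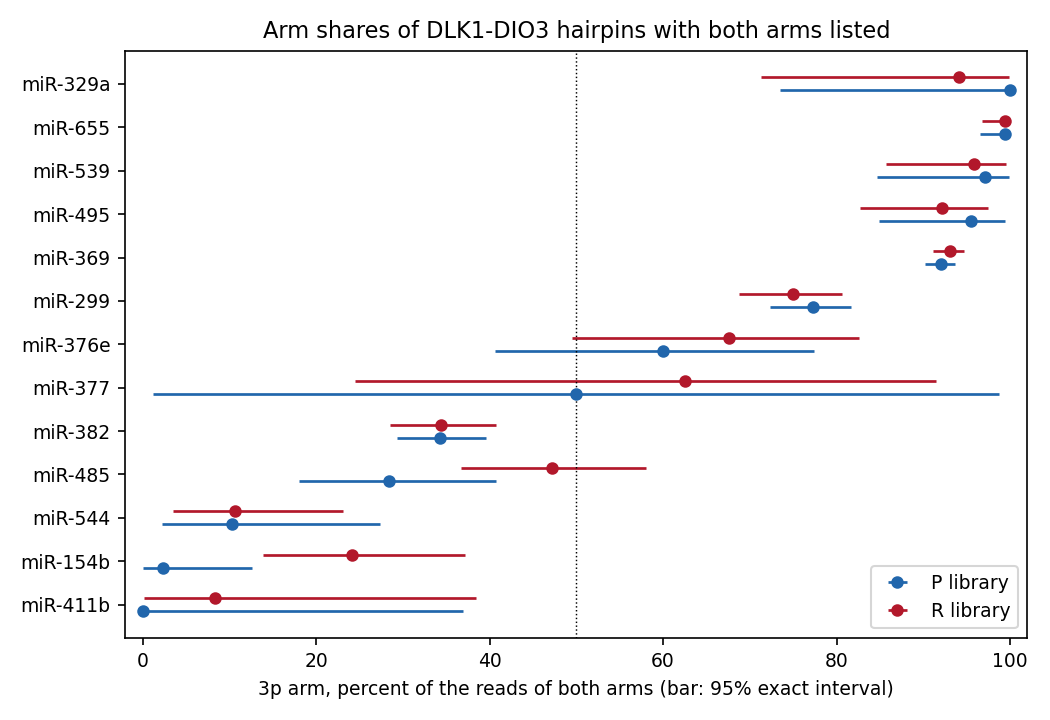
The 3p arm as a percent of the reads of both arms (horizontal, 95% exact intervals as bars) for the 13 DLK1-DIO3 hairpins with both arms listed and at least 10 reads, in the P and R libraries. The adjusted Fisher exact p passed for miR-154b alone, where the share was 24.1% in R and 2.38% in P.

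Most members were listed under a sheep reference, and many with small changes against it. A sheep reference was given for 35 of the 53 names and a human one for 7, and 20 names had a sequence identical to miRBase. The left end differed in 11 names, the right end in 22, and 11 carried a substitution, with lengths from 18 to 24 bases and a median of 21. The seed was that of miRBase in 38 names and another in the other 15. miR-300 was 1 of 5 names with 18 bases, as it lacked 4 bases at its right end. Of the 8 called members, miR-323 and miR-154b-3p had a seed other than that in miRBase, both through a change at the left end.

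Most seeds occurred in 1 hairpin of the locus. The members carried 45 different seeds, and 1 of them was found in 1 known name outside the locus. miR-412-3p and miR-411b-5p share a seed, and while the former was called lower on the deposited scale, the latter had 9.46 NE in R and 9.30 NE in P, a log2 ratio of 0.02 (interval -1.42 to 1.54) that passed as higher with listed reads, at 1.55. The seed that miR-154b-3p has through its lost base is that of miR-485-3p, which had 37.0 NE in R and 22.1 NE in P, a log2 ratio of 0.74 (interval -0.07 to 1.60), and which was called higher with clean and with listed reads (1.53 and 2.27). Whether the goat genome carries the substituted base of miR-376c, whose form with A6G was the one listed under both its sheep and its mouse name, was not analysed here. The mouse form of miR-376c had 1 read in R and 2 in P.

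By the rule for names, 27 of the 53 members were named, among them bta-miR-411b, which has the sequence of oar-miR-411b-5p. The other 26 are given by counts, with a few named besides for their position, seed or arm. Of these 26, 7 had at least 10 reads, with totals from 12.5 to 96 reads. Their levels ran from 6.02 to 41.3 NE in R and from 6.40 to 55.8 NE in P, with log2 ratios from -0.44 to 0.93, 3 above 0 and 4 below, and all 7 intervals held 0 on the deposited scale. With clean reads 2 of the 7, miR-656-3p and miR-544-5p, were called higher, beside 43.3% of all 356 known names. With listed reads 6 of the 7 were called higher, beside 68.3% of all names. The other 19 had fewer than 10 reads. Among the named members, some opposite arms were also rare: miR-655-5p had 1 read in each library, miR-495-5p had 5 reads in R against 2 in P, and the sheep form of miR-299-3p had 0 reads in R and 2 in P. miR-432-3p, which the rule passed over because the name of miR-432 carries no arm, had 4 reads in each library.

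Lists of miRNAs that mark cell types of the uterine wall were followed beside these results, and their part in the result was not tested. Each sum took the level of 1 entry of each distinct sequence, so names listed for several precursors count in it with 1 entry only. Sums over all entries were not made for these lists. The 12 names of the epithelium list (miR-141, miR-200, miR-203, miR-205, miR-375 and miR-429, all listed) summed to 34929 NE in R and 6747 NE in P, a log2 ratio of 2.37, and 9 of 9 names with at least 10 reads were called higher. Its most abundant name, miR-141-3p, had 28337 NE in R and 5791 NE in P, and mmu-miR-203-5p_1ss11GA was at 0 in P. Epithelial markers were thus present in both libraries, and the same 9 names were called higher in R under all 4 scalings. As the other scalings add 0.78, 1.52 or -0.07 to every ratio, keeping these calls was no separate check.

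Muscle markers were called lower in R on the deposited scale, where the names of miR-199 and miR-214, known from fibroblasts, were not called. The 6 names of the striated muscle list (miR-1, miR-133 and miR-499, 3 of 4 numbers, with no name of miR-206 listed) summed to 211 NE in R and 3795 NE in P, a log2 ratio of -4.17, with 5 of 5 names called lower, none at 0, and miR-133 the most abundant at 144.9 NE in R and 3558 NE in P. For smooth muscle and fibroblasts, 12 names (miR-143, miR-145, miR-199 and miR-214, all listed) summed to 389751 NE in R and 1976684 NE in P, a log2 ratio of -2.34. In that list miR-143 was the most abundant name, at 289634 NE in R and 1866274 NE in P, and none was at 0. Of its 11 names with at least 10 reads, 4 were called lower, all of them miR-143 or miR-145, while the other 7 had log2 ratios from -0.44 to 0.90 without a call. With clean reads 4 of the 5 striated muscle names were called lower, and in the longer list 2 of those 4 names were, the most abundant ones of miR-143 and miR-145, while 2 other names were called higher. With listed reads 4 striated muscle names and miR-143 were called lower, and all 7 names of miR-199 and miR-214 were called higher.

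On the deposited scale the sums of the blood and endothelial lists differed less. The 9 names for blood cells (miR-142, miR-144, miR-223, miR-451 and miR-486, 5 of 6 numbers, with no name of miR-150 listed) summed to 11694 NE in R and 11459 NE in P, a log2 ratio of 0.03 at 1 entry per sequence, with 2 of 7 names called higher. Their name with the most reads, miR-142-5p, had 5689 NE in R and 2524 NE in P, a log2 ratio of 1.17. These are the levels of 1 entry, while its reads over all entries and both libraries were 17572.7. In P the highest level was that of miR-486-5p, with 5052 NE in R and 8073 NE in P, a log2 ratio of -0.68, so names of this list lay on both sides of 0. A miR-223 name, oan-miR-223-3p_1ss22AT, was at 0 in P. For endothelium, the 5 names of miR-126 summed to 32841 NE in R and 21288 NE in P, a log2 ratio of 0.63, with 0 of 4 names called, none at 0, and miR-126-5p the most abundant at 23369 NE in R and 14955 NE in P. With clean and with listed reads 3 of these 4 names and 4 of the 7 blood names were called higher. With listed reads the log2 ratios of these sums were 1.55 for blood cells and 2.15 for endothelium, beside -0.82 for smooth muscle and fibroblasts, -2.65 for striated muscle and 3.90 for epithelium.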

How the data were processed

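Small RNA was sequenced from 1 library per phase. After removing adapters and other RNA classes, the authors compared the sequences with miRBase 20.0 precursors and the goat genome, and deposited a normalized signal per miRNA and library. Fold changes and P-values of the authors, raw reads, predicted candidates and predicted targets were not used here. The members and lists were chosen with earlier results of these data known.

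Reads were recovered as NE divided by the NE of 1 read, and whole reads within 0.01 were found for 91.0% of sequences in R and 90.9% in P. A name listed for several precursors (54 names) was counted once, with its reads summed. Sums of NE took the level of 1 entry of each distinct sequence, unless another count is named. The library labels were the same in the table of differential expression for 26 of 26 member rows, but reversed in the table of predicted candidates, whose P column holds the read steps of R. The candidate table printed in the paper has the labels used here. Depth was 1904242 known-miRNA reads in R and 4046631.7 in P. Intervals were exact (Clopper-Pearson, 95%), and arm shares were compared with the two-sided Fisher exact test. The named members were those with at least 100 reads, those called, the opposite arms of those whose name gives an arm, miR-431 and miR-154b-3p as named in the study's text, and those that share their seed. Names of goat genes came from the annotation of ARS1.2. Calls were tested on simulated data first. Alternatives were other scalings, read minimums, a pseudocount of 1 NE, other tests, and counts by name or sequence. The software was scipy 1.17.1, pandas 2.3.3 and numpy 2.4.6 under Python 3.11.15, with figures by matplotlib 3.10.9.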

Additional observations from a re-analysis of the deposited data

How the results depend on the processing

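No paired analysis was possible because each phase was 1 library of pooled goats, and the replicate number that R and P share is only 1. Of 30 members, 13 were higher in R as deposited, 20 with clean reads and 27 with listed reads, beside 188, 283 and 331 of the 356 known names. Calls among known names went from 121 to 254 with listed reads and to 73 where the interval had to lie wholly beyond 2-fold. Members called higher went from 3 to 7 with clean reads, 18 with listed reads and 1 with at least 30 reads. Members called lower went from 5 to 3 with clean reads, 0 with listed reads, 9 with the median at 0 and 0 wholly beyond 2-fold. Beside these, 49 of the 356 known names were called lower as deposited, then 20, 11, 57 and 30 in the same order. The median of the members went from -0.08 to 0.70 with clean reads, 1.44 with listed reads, -0.15 with the median at 0, -0.09 by distinct sequence and -0.07 with a pseudocount. With at least 30 reads it was -0.38 for 22 members, beside -0.02 for 282 known names. The summed log2 ratio went from -0.47 to 0.31 with clean reads, 1.05 with listed reads and -0.40 without miR-369-3p; counting each name once, or every entry (chosen after seeing the data), left -0.47. With listed reads, members below 0 went from 17 to 3: among others the sign turned for miR-299-3p (0.45) and miR-412-3p (0.16), called lower as deposited, for miR-154b-5p (1.19) and miR-655-3p (1.20), then called higher, and without a call on either scale for miR-432 (0.58), miR-369-3p (0.79), miR-369-5p (0.59), miR-382-5p (0.58), miR-382-3p (0.59) and miR-299-5p (0.62). The scalings add a constant, which accounts for their shifts; the cause of the other changes was not tested. All 23 members tried kept their call and direction with a pseudocount, and the arm test passed 1 hairpin also with the most abundant name of each arm. Depth limits the 23 members under 10 reads, for which no call was made.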

Other observations

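Another imprinted miRNA, miR-335 of the MEST locus, had 187 NE in R and 1629 NE in P over its 2 names, a log2 ratio of -3.13, and both were called lower in the receptive library on the deposited scale and with clean reads, and 1 of them with listed reads. For miR-675 of H19 and miR-483 of IGF2 no known name was listed.

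The conservation table lists, for 23 species, the precursors that matched the detected miRNAs, and its stated count equalled the number listed in all 23. Precursors of the DLK1-DIO3 locus were found in 13 species and in 0 of the other 10. In sheep they were 28 of 74 precursors (37.8%), in human 26 of 281 (9.25%), in mouse 22 of 250 (8.80%) and in cow 24 of 295 (8.14%). Platypus (137 precursors listed), opossum and Tasmanian devil (45), which are not placental mammals, had 0, and the 7 others without any had 16 listed precursors or fewer.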
